A study of Mus musculus with 6 samples.

Results

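The eosinophil-associated and related ribonucleases were 7 listed genes of the RNase A family, Ear1, Ear2, Ear6, Ear10, Rnase2a, Rnase4 and Ang, found by symbol among the 16111 genes of the deposited annotated expression table. Rows were found for 6 of the 7, and Ear10 had no row. The genes were proposed with the genotype difference in these libraries already known, so their levels and fold changes are given as descriptions with no test. The libraries came from fetal liver macrophages of C57BL/6 RCC mice taken as fetuses at E13.5, as 3 wild-type (WT) cultures and 3 Ahrr-deficient cultures. Ahrr encodes a repressor that competes with the aryl hydrocarbon receptor for its partner and its sites. All 6 cultures were kept for 5 weeks in medium with 2% GM-CSF, and only their non-adherent cells were collected. The labels number the mice 1 to 3 within each genotype, and the Ahrr allele (homozygous, with no account of the part removed) was not further described in the sources used here. No ligand of the aryl hydrocarbon receptor is named for any culture.

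RNase A family enzymes are small secreted proteins that cut single-stranded RNA, and many of them also act on cells as antimicrobial, chemoattractant or growth-promoting factors. In the mouse the eosinophil-associated branch (Ear genes and Rnase2a) has expanded into a cluster of near-identical genes and pseudogenes, the counterparts of human eosinophil-derived neurotoxin and eosinophil cationic protein. Despite the name, Ear1 and Ear2 are also well-known transcripts of alveolar macrophages, the lung macrophages that depend on GM-CSF. Ang encodes angiogenin, which cuts transfer RNA and promotes vessel growth, and Rnase4 encodes a ribonuclease that prefers uridine and is transcribed from start sites shared with Ang.

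All 7 genes lie on chromosome 14 of the GRCm38 build, in 2 groups 6987.5 kb apart. Ear1 (ENSMUSG00000072601.4, 43818765 to 43875517, minus strand), Ear10 (ENSMUSG00000090166.2, 43922720 to 43923559, minus strand) and Ear2 (ENSMUSG00000072596.4, 44102654 to 44103534, plus strand) occupied 284.8 kb. Rnase4 (ENSMUSG00000021876.15, 51091077 to 51106151), Ang (ENSMUSG00000072115.11, 51091150 to 51102009), Rnase2a (ENSMUSG00000047222.7, 51255262 to 51256112, minus strand) and Ear6 (ENSMUSG00000062148.6, 51853699 to 51854643) occupied 763.6 kb. Rnase4, Ang and Ear6 are on the plus strand.

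The promoters of the eosinophil-associated genes are shown first because they are close copies of one another, while the transcripts behind them did not have the same direction between genotypes. Each line holds the 250 bases before the RefSeq start of the gene, 5′ to 3′ on the gene's own strand, from GRCm38.p6. Ear2 is written in lower case, and in the other lines capitals mark bases that, within the aligned stretch, differ from Ear2 or have no partner in it. The windows are chr14:44102404-44102653 for Ear2, chr14:43819640-43819889 for Ear1, chr14:51853518-51853767 for Ear6 and chr14:51256113-51256362 for Rnase2a. RefSeq starts need not be those of the gene spans given above. The Ear1 window lies inside the Ear1 span, and the Ear6 window runs past the Ear6 start at 51853699.
Ear2: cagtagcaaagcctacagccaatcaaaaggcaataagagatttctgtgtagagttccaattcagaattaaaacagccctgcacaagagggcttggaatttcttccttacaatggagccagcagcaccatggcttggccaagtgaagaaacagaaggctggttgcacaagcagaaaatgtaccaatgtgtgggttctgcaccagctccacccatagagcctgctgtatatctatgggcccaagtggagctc
Ear1: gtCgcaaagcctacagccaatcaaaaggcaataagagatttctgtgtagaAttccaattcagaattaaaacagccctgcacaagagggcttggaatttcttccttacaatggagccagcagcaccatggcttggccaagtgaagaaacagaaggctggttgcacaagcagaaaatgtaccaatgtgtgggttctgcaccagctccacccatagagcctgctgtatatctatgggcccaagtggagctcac
Ear6: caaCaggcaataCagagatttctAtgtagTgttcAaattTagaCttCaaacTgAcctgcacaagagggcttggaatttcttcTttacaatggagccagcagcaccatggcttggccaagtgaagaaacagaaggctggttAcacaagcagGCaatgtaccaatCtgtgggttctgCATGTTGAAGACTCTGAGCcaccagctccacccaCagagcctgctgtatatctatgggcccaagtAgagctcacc
Rnase2a: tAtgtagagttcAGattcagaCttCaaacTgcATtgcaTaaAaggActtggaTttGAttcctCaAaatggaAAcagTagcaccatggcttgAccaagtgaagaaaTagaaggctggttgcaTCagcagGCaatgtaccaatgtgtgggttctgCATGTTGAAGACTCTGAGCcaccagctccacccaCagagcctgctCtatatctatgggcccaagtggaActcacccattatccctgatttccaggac
Ear1 was identical to Ear2 at 99.2% of 248 aligned bases, Ear6 at 93.0% of 227 and Rnase2a at 86.4% of 206. The Ear10 window, not printed, was identical to Ear2 at 94.3% of 245 bases. Ear6 and Rnase2a, printed with their differences from Ear2, held in common a run of 19 bases in capitals, CATGTTGAAGACTCTGAGC, beginning 75 bases before the start of Ear6 and 97 bases before that of Rnase2a. The windows of Ear1, Ear2, Ear10 and Rnase2b lacked it, and of 32851 RefSeq promoter windows searched on both strands, 2 held it. Both distances are to RefSeq starts, and in Ear6 the run reaches past the start at 51853699, into the exon of the span given above. This run was looked for after the alignments and the expression values had been seen, and whether it bears on expression was not tested.

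RefSeq windows were found for 7 of the 7 genes, and those of Ang and Rnase4 at their shared first start were identical over 250 bases. Short motifs named for known factors or promoter elements were then searched on both strands in the same windows, as a description. GCGTG, the core of sites bound by the aryl hydrocarbon receptor, was in 28.2% of all windows and in none of the 7 genes' windows. TTCNNNGAA, bound by STAT factors, was in 7.02% of all windows and in none of theirs, and TATAAA was in 12.4% of all windows and in none of theirs. GAGGAA, the core of sites bound by PU.1, was in 23.3% of all windows and among these genes once, in Rnase2a. CCAAT, found in 33.9% of all windows, occurred 3 times in Ear1, Ear2 and Ear10, and once in Ear6, Rnase2a and the window shared by Ang and Rnase4.

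How far reads can be assigned to single genes differed within the family. Libraries were read as single 75 bp reads, so every distinct stretch of 75 bases in the annotated transcripts was looked up in all other annotated genes. In Ear1, 39.3% of 639 stretches also occurred in another gene, namely Ear2, Ear10 or the pseudogenes Ear-ps2 and Ear-ps9. The share was 23.4% of 645 stretches in Ear2 and 32.5% of 604 in Ear10. No stretch of Ear6 (932) or Rnase2a (616) occurred exactly in another annotated gene.

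**Figure D1:**
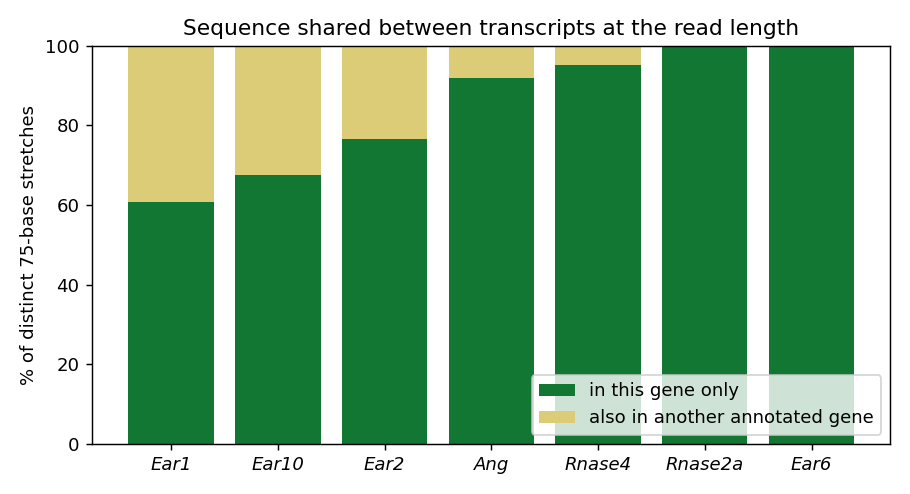
Share of distinct 75-base stretches of each gene's annotated transcripts (vertical axis, %) found in that gene alone (green) or also in another annotated gene (yellow). Ear1, with 39.3% shared, has the most ambiguous sequence, and Rnase2a and Ear6 have none.

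With up to 2 mismatches allowed, 56.7% of the Ear1 stretches matched Ear2, and 56.1% of the Ear2 stretches matched Ear1. The Ear1 and Ear2 transcripts were identical at 96.9% of their aligned bases. Rnase2a was more distinct, with 6.98% of its stretches within 2 mismatches of Ear1, 6.17% within 2 of Ear10 and 4.06% within 2 of Ear2. Ear6 had none within 2 of Ear2. Mismatches were allowed only between the 7 listed genes, so relatives such as Rnase2b and the Ear pseudogenes were not compared in this way. Ang and Rnase4 overlap on the same strand over 219 exonic bases, which is 18.2% of the Ang exons and 13.4% of the Rnase4 exons. How reads that fit several genes were treated, and whether strand was used, is not given in the sources used here. Counts of Ear1 and Ear2, and of Ang and Rnase4, are therefore uncertain as a division between each pair.

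Total counts per library lay between 3556106 (Ahrr-deficient replicate 1) and 41668336 (Ahrr-deficient replicate 2), and 3 counts, taken as the floor of detection, corresponded to 0.072 to 0.844 counts per 1000000 counts (CPM). Intervals and floors treat every count as independent and cover no error other than that of counting. The reads carry no molecular identifiers, so copies made by amplification were not set apart. Ahrr itself was at 4.60, 4.29 and 5.32 CPM in WT and at 2.25, 2.57 and 1.21 CPM in the Ahrr-deficient libraries (log2 fold change -1.21, SE 0.26, edgeR adjusted p = 0.0151). In the edgeR quasi-likelihood test, 2232 of 11408 tested genes (19.6%) had an adjusted p under 0.05. In the Ahrr-deficient libraries 1097 of the genes (9.62% of those tested) were higher and 1135 (9.95%) lower. The count moved by more than 1.5 times whichever library was left out, from 694 without WT replicate 1 to 3857 without Ahrr-deficient replicate 1. The ribosomal RNA gene CT010467.1 took 5.28% of the counts of WT replicate 2 and at most 0.0679% elsewhere; without that library the log2 fold changes were -1.45 for Ear1, -0.72 for Ear2, 1.13 for Ear6, 4.99 for Rnase2a, 0.02 for Rnase4 and 0.10 for Ang. CPM ranges of the genotypes did not overlap for 36.6% of tested genes. P-values set the genotype difference against the spread between cultures of the same genotype, 3 in each. In bulk RNA fewer cells expressing a gene and less RNA per cell cannot be told apart.

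Of the 6 ribonuclease genes with a row, all were tested in that fit. Rnase2a and Ear6 were past the threshold on the higher side and Ear1 on the lower side, 3 of 6 in all against the 19.6% of all genes, and CPM ranges did not overlap for the same 3. Because the genes were chosen on this contrast, nothing is read from these counts. Their median log2 fold change was 0.13, against 0.008 for all tested genes. Leaving out WT replicate 2 or 3 or Ahrr-deficient replicate 2 ended the call of Ear1, and leaving out any library other than Ahrr-deficient replicate 1 ended that of Ear6. The call of Ear6 was also lost with a minimum average of 50 counts and after thinning every library to the smallest total. Ear2 came past the threshold without Ahrr-deficient replicate 1 (-0.84), in DESeq2 (-0.61) and with no filter on low counts (-0.62).

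Ear2, whose protein is a ribonuclease that attracts dendritic cells, was by far the most abundant member. It was at 818, 661 and 1061 CPM in the WT libraries and at 733, 375 and 628 CPM in the Ahrr-deficient ones, from 2607 to 17943 counts per library. The means were 847 ± 201 and 579 ± 184 CPM (SD, n = 3). WT replicate 3 was the highest and Ahrr-deficient replicate 2 the lowest, and the groups overlapped, since Ahrr-deficient replicate 1 lay above WT replicate 2. The log2 fold change was -0.61 (SE 0.24), and -0.38 without Ahrr-deficient replicate 2. Ranked by CPM among the genes of each library, Ear2 stood at 117, 145 and 80 in WT and at 131, 358 and 172 in the Ahrr-deficient libraries.

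Ear1, its near-identical neighbour, was counted at 2.33, 2.54 and 3.92 CPM in WT and at 1.69, 0.888 and 1.32 CPM in the Ahrr-deficient libraries. These levels rest on 6 to 51 counts per library. Every Ahrr-deficient library lay below every WT library, although the exact 95% counting interval of Ahrr-deficient replicate 1, 0.619 to 3.67 CPM, spanned values of the WT group. The means were 2.93 ± 0.87 and 1.30 ± 0.40 CPM (SD, n = 3), with a log2 fold change of -1.44 (SE 0.32).

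Ear1 reads were a small part of the Ear1 and Ear2 reads together. The share was 0.283%, 0.383% and 0.368% in WT and 0.230%, 0.237% and 0.209% in the Ahrr-deficient libraries. Every Ahrr-deficient library lay below every WT library, but the exact 95% counting intervals of single libraries overlapped between genotypes, from 0.245% to 0.532% in WT replicate 3 and from 0.111% to 0.357% in Ahrr-deficient replicate 3, for example. The 2 genes had the same direction and stood lowest in the same library, Ahrr-deficient replicate 2. With 56.7% of Ear1 stretches within 2 mismatches of a far more abundant transcript, how many of the Ear1 counts came from Ear2 was not tested. When all Ear-named rows were summed into 1 feature, its log2 fold change was -0.60 (SE 0.24), close to that of Ear2 alone.

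Ear10, an Ear gene between Ear1 and Ear2, had no row. The annotated table lists every feature with at least 10 counts in total, so a feature of that name held fewer than 10 counts if it was counted.

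Ear6 is an eosinophil-associated ribonuclease that lies apart from the Ear1 and Ear2 cluster and shares no exact 75-base stretch with it. It was at 3.05, 2.22 and 1.40 CPM in WT and at 3.09, 7.27 and 4.45 CPM in the Ahrr-deficient libraries, from 10 to 303 counts per library. All Ahrr-deficient libraries lay above all WT libraries, but the nearest pair, WT replicate 1 and Ahrr-deficient replicate 1, were almost level. The means were 2.23 ± 0.83 and 4.94 ± 2.13 CPM (SD, n = 3), with a log2 fold change of 1.13 (SE 0.34). Without Ahrr-deficient replicate 2, the highest library, it was 0.65 (SE 0.36).

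Rnase2a, also named Ear11 and known as a macrophage chemoattractant that IL-4 and IL-13 raise in the lung, differed by the widest margin of the family. In WT it was held by 20, 2 and 2 counts, or 0.912, 0.317 and 0.280 CPM, so 2 of the 3 WT libraries lay under the floor of 3 counts. In the Ahrr-deficient libraries it had 28, 1216 and 298 counts, or 7.87, 29.2 and 30.1 CPM. Replicate 1 of the Ahrr-deficient group was well below the other two, and its exact 95% counting interval (5.23 to 11.4 CPM) met neither theirs nor that of any WT library, of which the highest upper bound was 1.41 CPM.

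Summed over libraries, 1542 Rnase2a counts in the Ahrr-deficient group stood against 24 in WT, a ratio of pooled rates of 41.2 with an exact 95% counting interval of 27.6 to 64.6. This interval takes no account of the spread between cultures. The fitted log2 fold change was 5.13 (SE 0.55), the third highest of the 11408 tested genes. It was 6.21 (SE 0.82) without WT replicate 1, the only WT library above the floor, and at least 4.89 in the other fits that left out 1 library.

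Rnase4 was at 56.6, 49.8 and 61.2 CPM in WT and at 60.5, 51.4 and 71.1 CPM in the Ahrr-deficient libraries, on 215 to 2142 counts. The groups overlapped throughout, with means of 55.9 ± 5.7 and 61.0 ± 9.9 CPM (SD, n = 3). The log2 fold change was 0.05 (SE 0.13), and its sign turned without Ahrr-deficient replicate 3 (-0.09, SE 0.12).

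Ang was at 5.88, 3.17 and 4.06 CPM in WT and at 4.78, 5.47 and 6.47 CPM in the Ahrr-deficient libraries, on 17 to 228 counts. WT replicate 1 lay among the Ahrr-deficient libraries, so the groups overlapped. The means were 4.37 ± 1.38 and 5.58 ± 0.85 CPM (SD, n = 3), with a log2 fold change of 0.21 (SE 0.23), and of 0.55 (SE 0.25) without WT replicate 1. Ang made up 5.99% to 9.41% of the reads of Ang and Rnase4 in WT and 7.33% to 9.62% in the Ahrr-deficient libraries, and the exact 95% intervals of the extremes, 3.70% to 9.10% in WT replicate 2 and 8.46% to 10.9% in Ahrr-deficient replicate 2, overlapped.

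**Figure D2:**
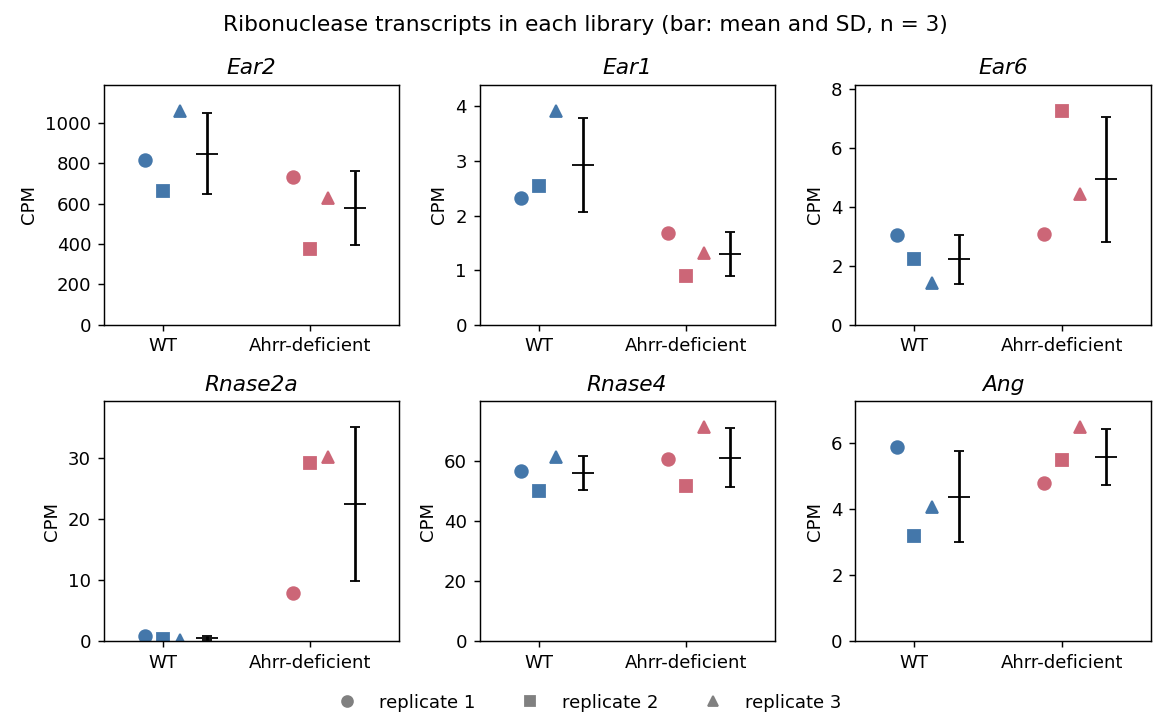
CPM (linear vertical axes from 0) of the 6 ribonuclease genes in each library, WT in blue and Ahrr-deficient in red, with a symbol for each replicate and bars for the mean and SD (n = 3). Rnase2a lies between 0.280 and 0.912 CPM in WT and between 7.87 and 30.1 CPM in the Ahrr-deficient libraries, Ear1 and Ear6 separate by smaller margins in opposite directions, and Ear2 and Ear1 are both lowest in Ahrr-deficient replicate 2.

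Levels of different genes were compared per length, as CPM per kb of exon. In WT the order of the means was Ear2 (1178), Rnase4 (34.1), Ear1 (4.01), Ang (3.64), Ear6 (2.36) and Rnase2a (0.729). Ear1, Ang and Ear6 overlapped in their ranges, and Rnase2a lay below all of them. In the Ahrr-deficient libraries the order was Ear2 (805), Rnase4 (37.3), Rnase2a (32.5), Ear6 (5.23), Ang (4.64) and Ear1 (1.78). Rnase2a, at 11.4 to 43.7 CPM per kb, overlapped Rnase4, at 31.4 to 43.4, and Ear6 overlapped Ang, while Ear1 lay below both. Rnase2a thus moved from the last to the third place, and Ear1 from the third to the last.

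**Figure D3:**
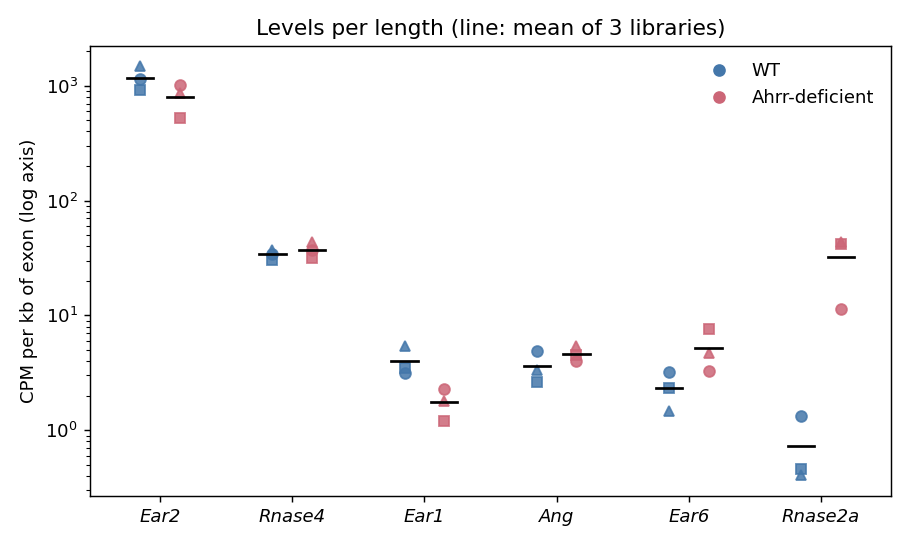
CPM per kb of exon (log axis) of each ribonuclease gene in the WT (blue) and Ahrr-deficient (red) libraries, with circles, squares and triangles for replicates 1, 2 and 3 and a line at each mean (n = 3). Ear2 stands above the rest in both genotypes. The mean of Rnase2a is 0.729 in WT and 32.5 in the Ahrr-deficient libraries, where Rnase4 is at 37.3 and replicate 1 of Rnase2a at 11.4.

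The makeup of the family's reads differed accordingly. The 6 genes and Rnase6, a further family gene described below, were summed. Together they held 889, 721 and 1135 CPM in WT and 815, 471 and 745 CPM in the Ahrr-deficient libraries, with overlapping ranges. Ear2 made up 92.0%, 91.7% and 93.5% of these reads in WT and 90.0%, 79.6% and 84.3% in the Ahrr-deficient libraries. Rnase2a made up 0.103%, 0.0440% and 0.0247% in WT and 0.967%, 6.20% and 4.05% in the Ahrr-deficient libraries.

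Among the other RNase A family genes, 31 names were looked up and Rnase6 had a row. Rnase6, an antimicrobial ribonuclease of macrophages and monocytes, lies in the same region of chromosome 14 as Rnase4 and Rnase2a. It was at 2.74, 1.59 and 3.08 CPM in WT and at 3.66, 2.09 and 3.64 CPM in the Ahrr-deficient libraries, and the groups overlapped. Its log2 fold change of 0.06 did not pass the test (SE 0.31, edgeR adjusted p = 0.910). Rnase2b, the nearest relative of Rnase2a by name, had no row.

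A further list of 18 genes, of which 17 were tested, is called the inhibitor and RNA handling list below. It held the ribonuclease inhibitor, other nucleases, and sensors and transporters of nucleic acids or nucleosides. A chaperone of Toll-like receptors and a receptor of angiogenin were also in it, and some of its genes act on DNA. The test was passed by 1 on the higher side, Rnh1, and by 4 on the lower side, Zc3h12a, Pld3, Tlr9 and Unc93b1. Of all tested genes 19.6% passed. Because the list was chosen with earlier results of these data known, nothing is read from this count. The median log2 fold change over the list was -0.11, against 0.008 for all tested genes. Rnh1 encodes the cytosolic ribonuclease inhibitor, which binds RNase A family enzymes very tightly. Its level was 322, 275 and 304 CPM in WT and 348, 509 and 482 CPM in the Ahrr-deficient libraries, all above WT. It rose by 0.50 on the log2 scale (SE 0.14, edgeR adjusted p = 0.0332), a call lost without any 1 library other than Ahrr-deficient replicate 1.

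Zc3h12a, the endoribonuclease Regnase-1 that cuts inflammatory mRNAs, was at 63.0, 58.7 and 59.1 CPM in WT and at 38.2, 36.9 and 36.8 CPM in the Ahrr-deficient libraries. It fell by 0.77 on the log2 scale (SE 0.09, edgeR adjusted p = 0.00173) and kept its call in all 15 alternative fits. The lysosomal exonuclease Pld3 fell by 0.55 (edgeR adjusted p = 0.00746), a call lost without WT replicate 1. The endosomal DNA sensor Tlr9 fell by 1.18 (edgeR adjusted p = 0.0146), a call lost without WT replicate 3 or Ahrr-deficient replicate 2. Unc93b1, the chaperone that carries endosomal Toll-like receptors, fell by 0.40 (edgeR adjusted p = 0.0423), a call lost after thinning and without any 1 library other than Ahrr-deficient replicate 1.

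The other 12 genes of the list did not pass. The RNA sensors had log2 fold changes of -0.11 for Tlr3, 0.12 for Tlr7, -0.49 for Tlr8 and 0.13 for Tlr13. The lysosomal ribonucleases Rnaset2a and Rnaset2b, near-identical copies whose counts may be divided between them, were at -0.33 and -0.13. Pld4 and Dnase2a, which cut nucleic acids in lysosomes, were at 0.14 and -0.08. The nucleic acid and nucleoside transporters Sidt2 and Slc29a3 were at -0.05 and 0.20. Plxnb2, a receptor of angiogenin, was at -0.31 (edgeR adjusted p = 0.123).

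**Figure D4:**
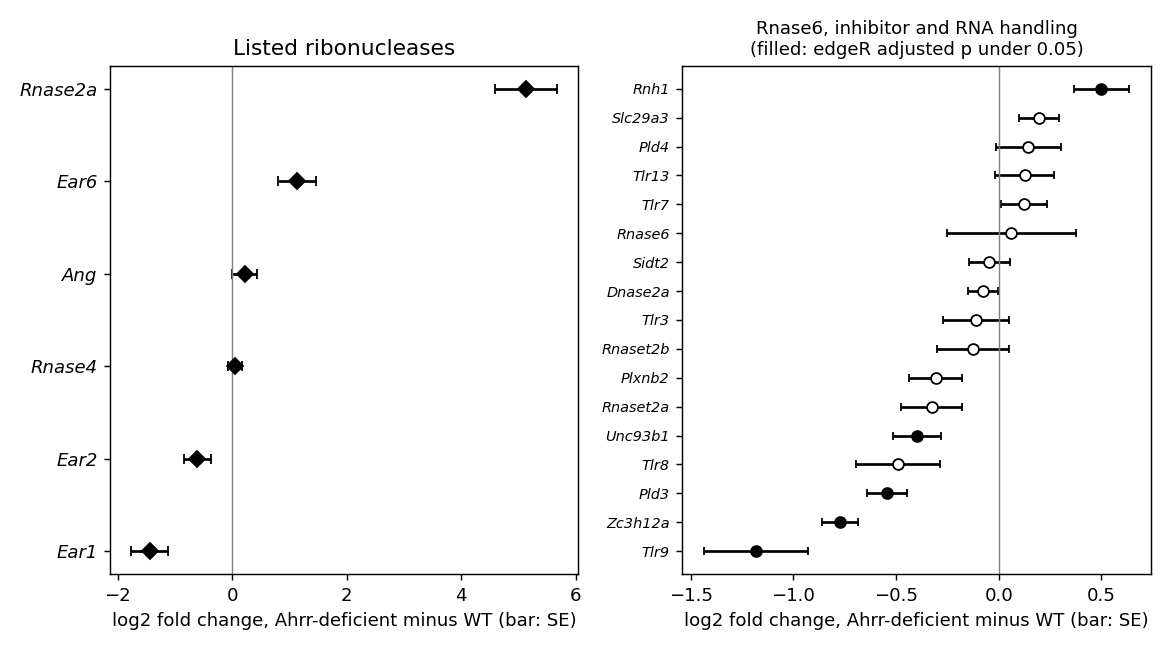
Log2 fold changes (Ahrr-deficient minus WT, bars: SE) of the 6 ribonuclease genes (left) and of Rnase6 with tested inhibitor and RNA handling genes (right, on its own axis range). Filled circles on the right passed the edgeR test at an adjusted p under 0.05, and the diamonds on the left carry no test because the genes were chosen on this contrast.

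The surroundings of the genes were described over 500 kb on each side. Of 30 genes outside the RNase A family with a row, 18 were tested and 3 passed, against 19.6% of all tested genes. The median log2 fold change of the 18 was -0.02. Around Rnase4, Ang, Rnase2a and Ear6, 17 neighbours were tested, of which Slc39a2 and Mettl17 passed on the higher side. Slc39a2, a zinc importer 38.2 kb from Ear6, was at between 9.95 and 20.3 CPM in WT and at 31.2, 123 and 61.0 CPM in the Ahrr-deficient libraries. It rose by 2.06 on the log2 scale (SE 0.44, edgeR adjusted p = 0.0147), a call lost without WT replicate 1 or WT replicate 3. Mettl17, whose gene overlaps that of Slc39a2, rose by 0.38 (edgeR adjusted p = 0.0459), and its call was lost in 9 of 15 alternative fits, among them those without any 1 library other than Ahrr-deficient replicate 1.

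Near Ear1, Ear10 and Ear2, 1 neighbour was tested. Gm8113, a protein-coding gene model 1.83 kb from Ear10, was at 25.9, 21.6 and 29.1 CPM in WT and at 23.1, 12.1 and 16.5 CPM in the Ahrr-deficient libraries. It fell by 0.77 (SE 0.21, edgeR adjusted p = 0.0336), a call lost after thinning and without any 1 library other than Ahrr-deficient replicate 1, and its lowest library was also the lowest of Ear2 and Ear1.

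**Figure D5:**
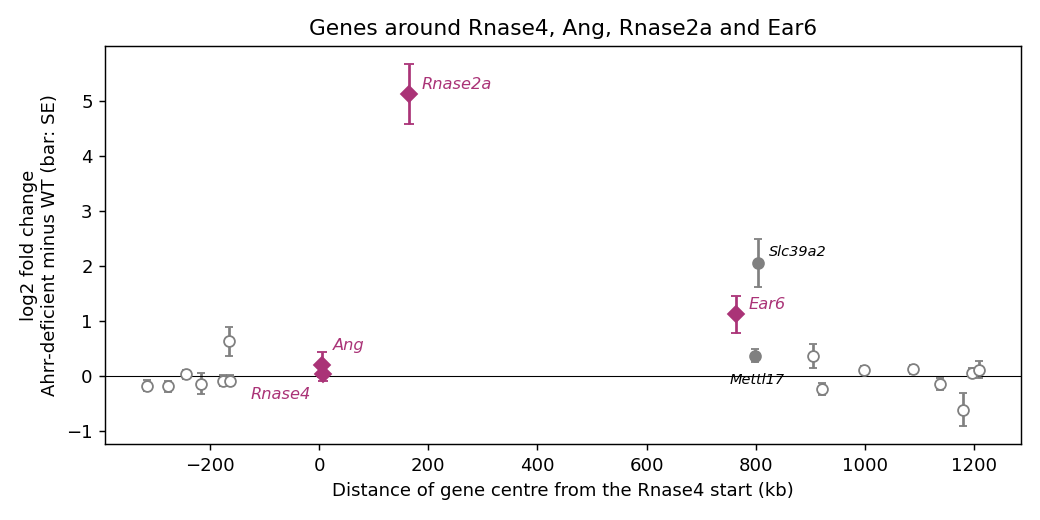
Log2 fold changes (Ahrr-deficient minus WT, bars: SE) of the ribonucleases and of tested genes outside the family within 500 kb of Rnase4, Ang, Rnase2a and Ear6, against the distance of the gene centre from the Rnase4 start (kb). Diamonds are the ribonucleases, with no test, and filled circles are neighbours past the edgeR threshold, Slc39a2 (2.06) and Mettl17 (0.38); the other neighbours (open circles) did not pass.

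Macrophage markers were present in every library, at a summed 22150 to 27450 CPM in WT and 15410 to 22870 CPM in the Ahrr-deficient libraries over 10 of 10 listed genes, all tested. The test was passed by 3 of them, all lower, against 9.95% of all tested genes on that side. This list and the marker lists below were chosen with earlier results known, so nothing is read from their counts. Lyz2 was at a log2 fold change of -0.46, and Cd68 at -0.38, neither past the test, while Csf1r fell by 0.65 (edgeR adjusted p = 0.0304), a call lost without any 1 library other than Ahrr-deficient replicate 1. Because the genes described here are named for eosinophils, markers of that cell were set beside them. Of 14 eosinophil markers 6 had a row and 3 were tested, of which 0 passed in edgeR, DESeq2 or limma-voom and 1 had an unadjusted p under 0.05 in each. The defining granule genes Prg2, Prg3 and Epx and the receptors Il5ra and Ccr3 had no row. The summed level was 32.1 to 61.9 CPM in WT and 60.0 to 69.2 CPM in the Ahrr-deficient libraries. Most of it was Siglecf, also a marker of alveolar macrophages, at 39.3, 27.5 and 58.8 CPM in WT and 63.3, 55.0 and 54.1 CPM in the Ahrr-deficient libraries, followed by Adora3 and Cebpe.

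Neutrophil and granulocyte precursor markers had a row for 8 of 16 names, with none for Ngp, Camp, Elane and Mpo. Their summed level was 116 to 157 CPM in WT and 194 to 294 CPM in the Ahrr-deficient libraries, and all 3 tested genes passed in unlike directions. The higher sum came from Mmp8, at a mean of 112 CPM in WT and 233 CPM in the Ahrr-deficient libraries, while the means of the 7 other genes were lower in the Ahrr-deficient libraries. Mmp8, a collagenase, rose by 0.98 (edgeR adjusted p = 0.0165; lost without Ahrr-deficient replicate 2). The chemokine receptor Cxcr2 fell by 2.25 (edgeR adjusted p = 0.0158; lost without Ahrr-deficient replicate 2 or 3), and the G-CSF receptor Csf3r fell by 2.69 (edgeR adjusted p = 0.00151). Mast cell and basophil markers summed to 0.317 to 1.54 CPM in WT and 0.607 to 2.25 CPM in the Ahrr-deficient libraries, all from Cd200r3, 1 of 10 names. Fetal liver and erythroid markers, 4 of 15 names, summed to 0.476 to 1.68 and 0.844 to 1.42 CPM. Dendritic cell markers, 5 of 10 names, summed to 57.7 to 62.4 and 72.2 to 94.2 CPM, and Clec9a rose by 0.49 (edgeR adjusted p = 0.0256; lost in 5 of 15 alternative fits). Clec9a made up most of that sum, at means of 54.5 and 81.2 CPM. Zbtb46, the other tested gene of the list, had means of 5.48 and 4.43 CPM and did not pass (log2 fold change -0.32, edgeR adjusted p = 0.228), and Itgae, at 0.129 and 0.648 CPM, was not tested. The part of any of these cells in the ribonuclease levels was not tested.

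Since Ear1 and Ear2 are alveolar macrophage transcripts and Rnase2a is known to follow type 2 cytokines, both programmes were counted. Both lists were chosen with earlier results of these data known, so nothing is read from their numbers of calls. Of 22 alveolar macrophage markers 21 were tested and 12 passed, 10 higher and 2 lower, against 19.6% of all tested genes. The median log2 fold change was 0.39, and 14 of the 21 were positive. The count of calls was 7 without WT replicate 1 or Ahrr-deficient replicate 2. Car4, a carbonic anhydrase, was at 128, 45.4 and 61.7 CPM in WT and at 260, 1086 and 780 CPM in the Ahrr-deficient libraries, a rise of 3.10 (edgeR adjusted p = 0.00622). The integrin gene Itgax rose by 1.70 (edgeR adjusted p = 6.96e-04) and the keratin gene Krt19 fell by 1.40 (edgeR adjusted p = 0.00637), a call lost after thinning (adjusted p = 0.0701). Slc39a2, above, also belongs to this list. In Car4 and Slc39a2, as in Rnase2a and Ear6, WT replicate 1 was the highest WT library and Ahrr-deficient replicate 1 the lowest Ahrr-deficient library. Other genes of the list, among them Itgax and Mrc1, had the same order, while Krt19 did not. The order was therefore not confined to Rnase2a, Ear6, Car4 and Slc39a2, and how many of all genes have it was not counted.

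Of 18 type 2 activation genes 16 had a row, 12 were tested and 3 passed, 2 higher and 1 lower. The share of all tested genes was 19.6%, and the median log2 fold change of the list was -0.07. Irf4, a transcription factor of alternative activation, rose by 1.40 (edgeR adjusted p = 8.97e-04), and the mannose receptor Mrc1 rose by 0.59 (edgeR adjusted p = 0.00766). The lectin gene Clec10a fell by 0.95 (edgeR adjusted p = 0.00239). All 3 kept their call in every alternative fit.

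For the 5 ribonucleases that averaged 50 counts or more per library, the genes with the most similar pattern over the 6 libraries were ranked by Pearson's r of log2 CPM among 10033 genes. With 6 points that share their library and its depth, such values describe these libraries and carry no test. Rnase2a was closest to St7 (r = 0.998), Bhlhe40 (0.998) and Zdhhc5 (0.995), of which Bhlhe40 encodes a transcription factor and went from a mean of 221 to 618 CPM. Ear2 was closest to Plxna4os1 (0.994), the lysosomal mannosidase gene Man2b1 (0.993) and the lectin gene Clec4a3 (0.993). Ear6 was closest to Nip7 (0.996), Cndp2 (0.995) and Zfp330 (0.994).

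Rnase4 was closest to Taok3 (0.979), Vps16 (0.970) and Pot1a (0.966), and Ang to Paxip1 (0.994), Morf4l1 (0.979) and Erich1 (0.964). After each group's mean was subtracted, the closest genes included BC026585, Sec16b and Aagab for Ear2, Sssca1 and Cndp2 for Ear6, Ppp2r3d, 5830417I10Rik and Ocel1 for Rnase2a, Gcdh, Ric8b and Ascc1 for Rnase4, and Paxip1, Morf4l1 and Csad for Ang. Cndp2 for Ear6 and Paxip1 and Morf4l1 for Ang were thus among the 3 closest by both measures, and none was for Ear2, Rnase2a or Rnase4.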

How the data were processed

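Polyadenylated RNA (100 ng) from 3 WT and 3 Ahrr-deficient cultures was made into TruSeq libraries and read as single 75 bp reads, per the labels' protocols. The submitters' processing notes name CASAVA 1.8.2, fastp 0.20.0, STAR 2.7.10b, SAMtools 1.16.1, R 4.3.1, DESeq2 1.40.2 and the build mm10. The counting program, annotation and strand setting are not given in the sources used here. The authors deposited raw counts for 53465 features without identifiers, and a size-factor normalized signal for 16111 named genes. Each value of the deposited signal was a whole multiple of 1 read (100% of values, tolerance 0.01), and the recovered reads equalled the raw counts of the features with at least 10 counts. Features without a name held 0.0232% to 0.0511% of a library's counts. In the reported fit they entered only the library total. The alternative with no filter also tested unnamed features, for 24416 features in all.

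Recovered counts were tested with edgeR 4.0.16 in R 4.3.3 (quasi-likelihood, TMM, filterByExpr, genotype as the only term, 2-sided), with Benjamini-Hochberg adjustment over 11408 genes and a threshold of 0.05. Standard errors were taken from the fold change and F. The fit was tested on simulated data. CPM is counts over the library total, and lengths and coordinates come from GENCODE release M21, which matched 16088 of 16111 identifiers. Promoters come from RefSeq, read with Python 3.11.15 and aligned with Biopython 1.88. No 2 libraries of 1 genotype were duplicates (chi-square per degree of freedom at least 5.795). Alternatives were RLE and upper-quartile factors, DESeq2 1.42.0, limma-voom (limma 3.58.1), no filter, a minimum average of 50 counts, a replicate block, thinning to the smallest total, summed near-identical genes, and leaving out each library.

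The members and lists were chosen with earlier results of these data known, so their numbers of calls are descriptions. Named besides the members are every tested gene of the other RNase A and the inhibitor and RNA handling lists, up to 4 with the largest change past the threshold of the alveolar, type 2 and flanking lists, the up to 3 most abundant of the marker lists, and the 3 genes nearest in pattern to each member that averages 50 counts or more. The 75-base, promoter and per-length descriptions were added after the files were seen. Protein sequences were not used here, and 2 genes that this rule names are not reported here.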

Additional observations from a re-analysis of the deposited data

How the results depend on the processing

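The 15 alternatives gave 172 values, of which 142 stayed close to the reported one (a count within 1.5 times, a fold change within 1 SD), 29 moved and 1 reversed. The number of genes past the threshold, 2232 in the reported fit, was 1390 with the replicate block and 1166 with thinning to the smallest total, and lay between 694 and 3857 when 1 library was left out. Of the 1390 genes called with the replicate block, 1343 were among the 2232. Same-numbered libraries deviated from their group means with correlations of -0.169, 0.0714 and 0.129, so the numbers were not taken to pair the cultures. The inhibitor and RNA handling list had 3 calls with the replicate block and 2 to 7 without 1 library, against 5 reported. The flanking genes had 1 call with thinning and 0 to 6 without 1 library, against 3. The alveolar list had 7 to 16 calls without 1 library, against 12, and the type 2 list had 5 without a filter and 3 to 6 without 1 library, against 3. Rnase6 was not called in any alternative that tested it, and it was not tested with a minimum average of 50 counts or after thinning. With the replicate block, Rnh1, Unc93b1 and Mettl17 lost their call, as did Ear6 (1.06), and Ear2 came past the threshold (-0.65).

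Ear6 reversed to a log2 fold change of -0.60 when the Ear rows were summed, by construction, since Ear2 holds most of that sum. Over all alternatives run, Rnase2a lay between 4.66 and 6.21, Ear1 between -1.65 and -0.60, Ear2 between -0.84 and -0.38, Rnase4 between -0.09 and 0.18 and Ang between 0.06 and 0.55, and otherwise Ear6 between 0.65 and 1.51. Ear1 had no value with a minimum mean of 50 counts or after thinning. Where a library left out changed a result, the cause was not tested. Depth limits Ear1, Ear6, Ang and WT Rnase2a most, each with 20 counts or fewer in at least 1 library.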
